A study of Mus musculus with 2 samples.

Results

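The genes described here make, store, export or burn cholesterol and fatty acids. They are 37 named genes of cholesterol synthesis and its control, sterol export and esterification, fatty acid synthesis, desaturation and elongation, and fatty acid oxidation, out of 23411 genes in the tables, and each was represented by the transcript with the most reads. RNA came from mTEC, the epithelial cells of the thymic medulla that show tissue antigens to developing T cells, taken from B6 mice. The cells were sorted by surface MHC class II into MHC-II high mTEC and MHC-II low mTEC, and both fractions came from 1 pool of 3 mice with no treatment or engineered allele named in the labels. The age of the mice was not among the labels. Each group was 1 library of poly-A RNA, so no difference below has a replicate check, and every interval covers at most counting error.

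Cells build cholesterol from acetyl-CoA through mevalonate and squalene. The transcription factor made from Srebf2 drives this pathway when membrane sterol is low: Scap carries it out of the endoplasmic reticulum, and the Insig proteins hold the pair back when sterol is plentiful. Srebf1 acts in the same way on fatty acid synthesis, and the oxysterol receptors of the Nr1h family turn on sterol export.

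Values are reads scaled to the TMM library total (CPM, the usual depth-scaled count) and, for levels compared between genes, CPM per kilobase of transcript. The library totals on genes were 138368535 reads for MHC-II high and 56077479 for MHC-II low. A gene counts as higher or lower in the high library when the whole exact 95% interval of its ratio lies beyond 2-fold, and 17438 genes with a mean of at least 1 CPM were compared. All 9 markers of mature mTEC had a ratio above 1 and 8 passed as higher, with Cd74 at 9289 against 4454 CPM. The cells were sorted on MHC class II, so genes of that system in the list, Cd74 and H2-Aa among them, are no independent check. Of 6 markers of immature mTEC 5 were lower, with Krt5 at 768 against 5863 CPM. The 6 markers of thymic epithelium gave 1 higher and 1 lower call and summed to 5293 against 9014 CPM, high library first. Krt17, first of them by reads, was the lower one, at 1785 against 4602 CPM. The epithelial keratin gene Krt8, second by reads, was abundant in both, at 1569 and 1955 CPM. Markers of other cells also differed, and none of those found in the tables was at 0 reads in either library. All 8 endothelial markers were lower in the high library (71.9 against 482 CPM summed, with Vwf and Pecam1 first by reads). So were 5 of 7 fibroblast markers (219 against 2260 CPM, with Col6a2 and Dcn first by reads) and 2 of 4 compared erythroid markers (66.2 against 2146 CPM, mostly Hba-a1 and Hbb-bs). Dendritic cell and macrophage markers were higher in 5 of 7 cases (430 against 101 CPM, of which Lyz2 gave 362 and 74.0 CPM; Itgam was second by reads). Adipocyte markers were higher in 3 of 4 compared cases, at low levels (22.0 against 7.80 CPM, with Cidec and Adipoq first). Of the thymocyte markers, led by Cd4 and Rag1, 1 was higher and 2 lower of 7 (34.6 against 54.4 CPM), and of the B cell markers, led by Cd79b and Ms4a1, 2 were higher of 4 (30.1 against 24.1 CPM). In bulk RNA, fewer cells of a type and less RNA per cell cannot be told apart, and the part of these other cells in the results below was not tested.

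Of the 37 genes, 36 passed the minimum. Acacb, Idi1 and Hsd17b7 passed 2-fold on the MHC-II high side (3 genes, 8.33%), and Fads1, Fads2 and Abca1 on the low side (3 genes, 8.33%). Among all genes compared, 14.5% were higher and 10.9% lower, so these genes held no larger a share of differences than the rest. Their median log2 ratio was 0.08, beside −0.01 over all genes, and 21 of 36 lay within the middle 50% of all genes, whose quartiles were −0.58 and 0.65. With the threshold at 1.5-fold, 9 were higher (25%, background 22.8%) and 5 lower (13.9%, background 20.4%). The counts depend on how the libraries are scaled: when the totals that the deposited RPKM values imply were used, 18 members were higher and 0 lower, while the median over all genes was then 0.997 and the members' median 1.08. Reads summed over all listed transcripts, which can share reads, came to 89.5% of that total in the high library and 52.0% in the low one. What makes up the rest was not examined. The order of the genes is the same under every scaling, so groups are set below against the median of all genes.

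**Figure D1:**
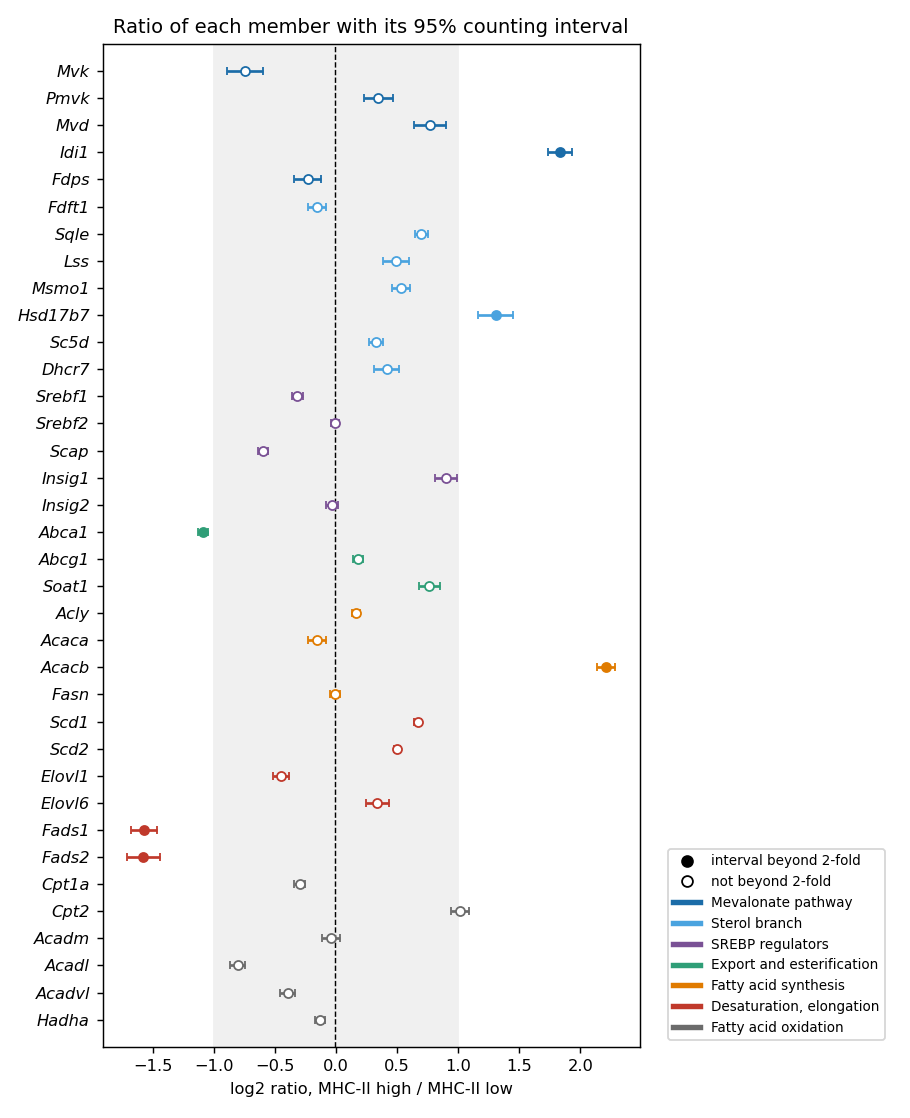
Each point is the log2 ratio of 1 gene between the MHC-II high and the MHC-II low library, with the exact 95% interval of its reads, coloured by role. Filled points mark the 6 genes whose interval lies beyond 2-fold (outside the grey band), from Acacb at 2.21 to Fads2 at −1.58, and the dashed line marks the median of all genes at −0.01.

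Cholesterol synthesis genes lay mostly above the median of all genes. Of its 12 genes compared, 9 lay above it, with a median log2 ratio of 0.45. A scaling shifts all genes alike and can change this count only through which genes pass the minimum, so its staying at 9 is no support. With the other minimums and transcript choices the count was 9 as well. Calls beyond 2-fold were 2 higher and 0 lower, beside 14.5% and 10.9% of all genes, so the count of calls does not set the group apart. Idi1, whose enzyme converts isopentenyl to dimethylallyl diphosphate, had 10071 reads (65.9 CPM) against 939 (18.5 CPM), high library first, which is 3.56-fold higher (interval 3.33 to 3.81). Hsd17b7, the 3-ketosteroid reductase of the post-lanosterol steps, had 3339 against 449 reads (21.8 against 8.84 CPM) and was 2.47-fold higher (2.24 to 2.73). No other gene of the group passed 2-fold.

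Other genes of the group differed by less than 2-fold. The decarboxylase gene Mvd was at 18.9 against 11.1 CPM (log2 ratio 0.77), and Sqle, whose epoxidase starts the oxygen-requiring part of the pathway, was at 125 against 77.1 CPM (0.70). The remaining sterol genes kept a narrower range: Msmo1, a methyl sterol oxidase, had a log2 ratio of 0.53, the cyclase gene Lss 0.49, the last-step reductase gene Dhcr7 0.41 and the desaturase gene Sc5d 0.32. Pmvk, the second of the pathway's kinases, was at 0.35. Mvk, the kinase just before it, went the other way, at 6.73 against 11.3 CPM and a log2 ratio of −0.75, the lowest of the group. The prenyl synthase gene Fdps (−0.24) and the squalene synthase gene Fdft1 (−0.16) lay below the median of all genes and within its quartiles. The span of Fdft1 overlaps that of the gene of the lysosomal protease Ctsb (log2 ratio −0.79). Without strand, any reads they share cannot be told apart. Overlaps here and below are of whole gene spans, and whether reads are shared was not examined.

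The first gene of the list, Hmgcs1, could not be measured. Its transcript was listed at 2 genomic copies of 3283 bases, with 0 reads at each copy in both libraries. The lines beside it, for Zfp131, Nim1k and 1700074H08Rik, were also listed at 2 copies and 0 reads. Among coding transcripts, 17 of 274 listed at several copies were at 0 in both libraries (6.20%), against 86 of 26126 listed at 1 copy (0.329%). No other transcript of these 37 genes was listed at several copies. The 0 is therefore given as listed, not as a lack of expression.

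Promoters of this group are printed because 9 of its 12 compared genes lay above the median of all genes and because sterol-responsive promoters are known to pair a sterol element with boxes bound by NF-Y. RefSeq windows from 250 bases before to 50 after the start (GRCm38.p6) were found for 30 of the 37 genes, all but Fdps, Fdft1, Sqle, Abcg1, Scd1, Scd2 and Fads1. The NF-Y box CCAAT, on either strand, was in a window of 10 of 10 cholesterol synthesis genes with an entry, beside 41.1% of all 27025 genes with a window. Outside that group it was in 4 of 5 regulators, 3 of 4 fatty acid synthesis genes and 1 of 2 export and esterification genes. It was also in 1 of 3 desaturation and elongation genes and 1 of 6 oxidation genes, which makes 20 of the 30. A gene counted when any of its windows held the motif. By window, CCAAT was in 10 of 13 for cholesterol synthesis and 5 of 10 for the regulators, beside 37.4% of all windows. The 27025 genes also include genes that were not compared. The sterol element form TCACNCCAC, on either strand, was in the window of Hmgcs1 and of no other of these genes, beside 1.44% of all genes. The Sp1 box GGGCGG was in a window of 9 of the 10 cholesterol synthesis genes and of 23 of the 30, beside 38.2% of all genes. It was in 5 of 5 regulators and 4 of 6 oxidation genes, but in 1 of 4 fatty acid synthesis genes. The motifs were chosen with the expression values known, a match is no evidence of binding, and no match says only that these letters are not in the window. The 150 bases before the start are shown 5′ to 3′ for Hmgcs1, for the 2 called genes Idi1 and Hsd17b7, for Lss as a gene with a smaller difference, and for Acacb, the called gene of fatty acid synthesis. Capitals mark CCAAT, or ATTGG where it lies on the other strand, and the sterol element of Hmgcs1.
Hmgcs1, chr13:119690201-119690350, plus strand: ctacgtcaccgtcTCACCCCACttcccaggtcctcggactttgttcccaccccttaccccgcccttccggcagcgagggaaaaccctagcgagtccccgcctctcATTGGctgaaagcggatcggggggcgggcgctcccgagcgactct
Idi1, chr13:8885456-8885605, plus strand: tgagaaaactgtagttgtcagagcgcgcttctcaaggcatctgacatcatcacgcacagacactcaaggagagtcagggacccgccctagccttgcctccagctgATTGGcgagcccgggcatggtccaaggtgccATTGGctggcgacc
Hsd17b7, chr1:169969206-169969355, minus strand: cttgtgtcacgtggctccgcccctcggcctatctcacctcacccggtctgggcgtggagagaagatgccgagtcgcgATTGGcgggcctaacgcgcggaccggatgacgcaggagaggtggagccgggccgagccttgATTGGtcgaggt
Lss, chr10:76531455-76531604, plus strand: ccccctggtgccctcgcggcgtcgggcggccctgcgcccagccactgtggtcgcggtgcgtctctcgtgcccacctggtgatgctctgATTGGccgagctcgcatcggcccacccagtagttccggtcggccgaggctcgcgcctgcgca
Acacb, chr5:114165368-114165517, plus strand: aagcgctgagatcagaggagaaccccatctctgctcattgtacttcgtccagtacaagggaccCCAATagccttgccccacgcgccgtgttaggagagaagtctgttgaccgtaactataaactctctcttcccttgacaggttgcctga
In Idi1 the boxes begin 45 and 14 bases before the start, in Hsd17b7 73 and 12 bases before it, in Lss 62 and in Hmgcs1 45, all on the other strand. The box of Acacb begins 87 bases before the start and is on the strand shown. Of the called genes with a window, Acacb, Idi1 and Hsd17b7 held a CCAAT box, while Abca1 and Fads2 did not. Among genes not called, Mvd (log2 ratio 0.77) and Lss (0.49) held one, and so did Mvk (−0.75) and Elovl1 (−0.46). Cpt2 (1.01) and Elovl6 (0.34) held none, nor did Scap (−0.60) and Acadl (−0.81). Whether the box goes with the ratio was not tested.

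Of the 5 genes that control the pathway, 0 passed 2-fold either way, beside 14.5% higher and 10.9% lower of all genes. So few genes cannot be set apart by that count. Their median log2 ratio was −0.04, but Insig1 lay above and Scap below the quartiles of all genes (0.65 and −0.58). Srebf2 was at 157 against 158 CPM, a log2 ratio of −0.01, and Srebf1 at 92.6 against 115 CPM (−0.32). Srebf1 overlaps Rai1 (log2 ratio −1.27), and any reads they share cannot be told apart. The escort gene Scap was the lowest of the 5, at 93.7 against 142 CPM (−0.60). Of the retention genes, Insig1 was at 45.3 against 24.3 CPM (0.90, interval 0.81 to 0.99; it passed 2-fold with unscaled and with RPKM read totals, at 1.18 and 1.90) while Insig2 was at 82.4 against 84.6 CPM (−0.04). Insig1 is itself a known target of the Srebf2 product. Per kilobase, Insig1 stood at 0.560 of the Insig2 level in the high library and at 0.293 in the low one, a log2 change of 0.93 (0.83 to 1.03) that no scaling alters. Both libraries therefore held more Insig2 than Insig1 RNA per length.

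Export and esterification genes split. Abca1, the transporter that loads cholesterol onto apolipoprotein A-I, had 11307 reads (74.0 CPM) against 7989 (157 CPM), high library first, so MHC-II low had 2.13-fold more (2.07 to 2.19). This call is the least firm of the 6, as the log2 ratio of −1.09 became −0.97 with TMM factors from all genes, −0.98 with DESeq2 size factors, −0.80 with unscaled and −0.09 with RPKM read totals, none of which passes 2-fold. Its partner Abcg1 was at 132 against 116 CPM (0.18), so Abca1 relative to Abcg1 per kilobase was 0.318 for MHC-II high and 0.766 for MHC-II low, a log2 change of −1.27 (−1.33 to −1.21). Endothelial and fibroblast markers were lower in the high library like Abca1, and their part in it was not tested. Soat1, which esterifies cholesterol for storage in most tissues, was at 43.0 against 25.4 CPM (0.76).

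In fatty acid synthesis the differences fell on 1 of the 2 acetyl-CoA carboxylase genes. Acacb encodes the carboxylase of the outer mitochondrial membrane, whose malonyl-CoA restrains the entry of fatty acids into mitochondria, and Acaca the cytosolic carboxylase that feeds fatty acid synthase. Acacb had 22085 reads (145 CPM) against 1584 (31.2 CPM), high library first, and was 4.63-fold higher (4.40 to 4.88), the largest ratio of the 36 genes and above 94.7% of all genes compared. Acaca was at 40.2 against 44.8 CPM (−0.16). Per kilobase, Acacb was thus at 3.83 times the Acaca level in the high library and at 0.741 times in the low one, which reverses the order of the pair. The citrate lyase gene Acly (178 against 159 CPM, log2 ratio 0.16) and the synthase gene Fasn (122 against 123 CPM, −0.01) were nearly equal in the libraries. Acaca overlaps Tada2a (log2 ratio −0.04).

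Desaturase genes held both the most abundant genes and the lowest ratios of the set. The stearoyl-CoA desaturases, which make monounsaturated fatty acids, led the levels in both libraries: Scd2 was at 105 against 74.5 and Scd1 at 79.2 against 49.9 CPM per kilobase. Their log2 ratios of 0.50 and 0.67 were below 2-fold, and Scd1 relative to Scd2 moved little, from 0.669 in the low to 0.752 in the high library. The front-end desaturases of polyunsaturated fatty acids went the other way. Fads1 had 1474 reads (9.64 CPM) against 1460 (28.8 CPM), high library first, so 2.98-fold more in MHC-II low (2.77 to 3.21), and Fads2 had 893 reads (5.84 CPM) and 886 reads (17.5 CPM), 2.99-fold more there (2.72 to 3.28). These 2 genes lie near each other on chromosome 19, and their ratio to one another was the same in both libraries to within counting error (log2 change 0.00, −0.17 to 0.17). Fads3, the next gene of the cluster, was at 3.65 against 4.16 CPM (−0.19) on 558 and 211 reads, with an interval of −0.42 to 0.05 that does not reach the Fads1 and Fads2 values. With RPKM read totals neither Fads1 nor Fads2 passed 2-fold (−0.57 and −0.58). Endothelial and fibroblast markers were lower in the high library as well; their part in the Fads1 and Fads2 values was not tested. Of the elongase genes, Elovl6 had a log2 ratio of 0.34 and Elovl1 one of −0.46. Elovl1 overlaps the cell cycle gene Cdc20 (1.73), and any reads they share cannot be told apart.

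**Figure D2:**
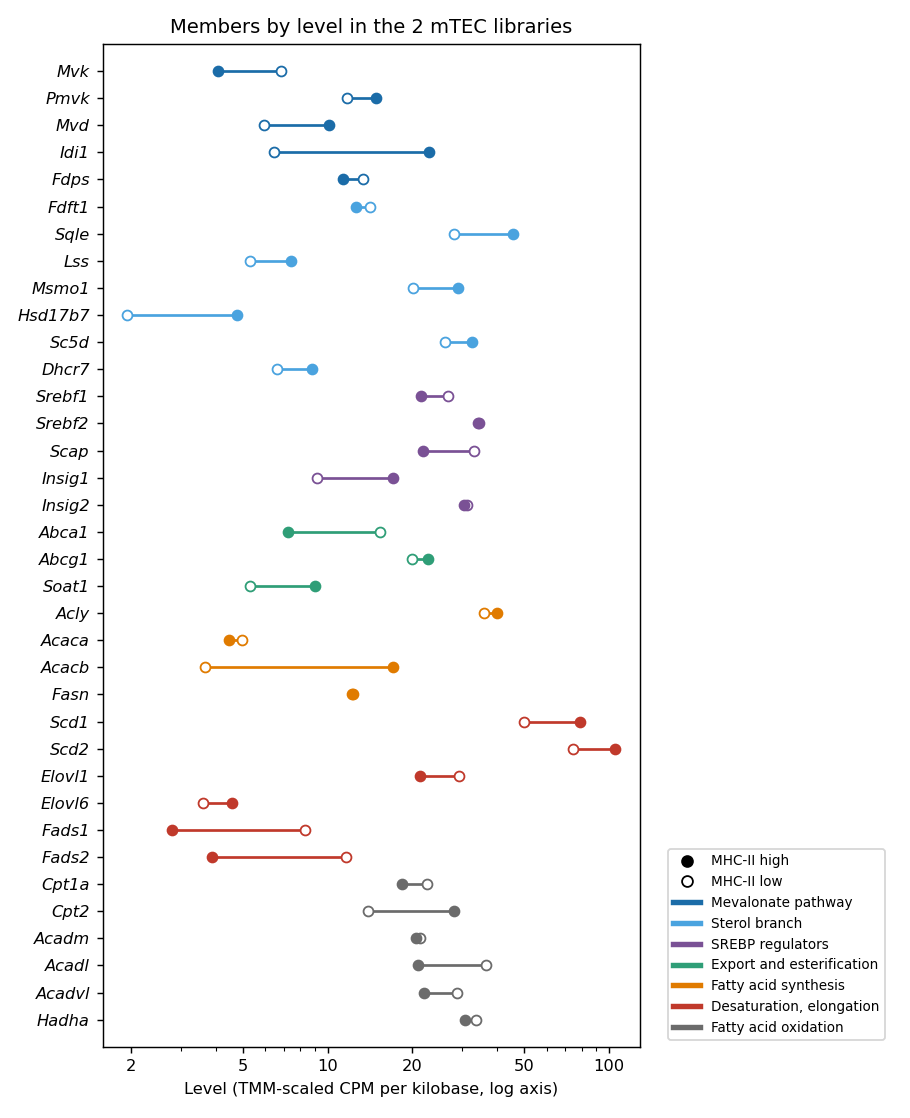
Levels of the 36 genes in CPM per kilobase on a log axis, with filled points for the MHC-II high and open points for the MHC-II low library, joined by a line and coloured by role. Scd2 and Scd1 are highest in both libraries, Fads1 is lowest in the high one at 2.79 and Hsd17b7 lowest in the low one at 1.93, and the points of Srebf2 and Fasn coincide.

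Fatty acid oxidation genes were expressed at similar levels per length, and most lay below the median of all genes. All 6 lay between 18.4 and 30.7 CPM per kilobase in the high and between 13.9 and 36.6 in the low library. In either direction 0 of the 6 passed 2-fold, beside 14.5% higher and 10.9% lower of all genes, a count that does not set so few genes apart. The median log2 ratio of the 6 was −0.22 (0.069 with unscaled and 0.78 with RPKM read totals). Of these, 5 lay below the median of all genes; that count was 4 with a minimum of 5 CPM and 3 with no minimum. The exception was Cpt2, the inner-membrane carnitine palmitoyltransferase, at 66.2 against 32.8 CPM, a log2 ratio of 1.01 whose interval (0.94 to 1.09) reached below 2-fold. Cpt2 passed 2-fold with DESeq2 size factors and with TMM factors from all genes (1.13 each), with unscaled (1.30) and with RPKM read totals (2.02). Cpt1a, its outer-membrane counterpart and the step that malonyl-CoA inhibits, was at 79.1 against 97.3 CPM (−0.30). Per kilobase Cpt2 was at 1.53 times Cpt1a in the high library and at 0.616 times in the low one, again a reversal of order. The acyl-CoA dehydrogenase genes were ranked by log2 ratio as Acadm (−0.04, medium chain), Acadvl (−0.40, very long chain) and Acadl (−0.81, long chain, at 39.6 against 69.3 CPM). Hadha, of the trifunctional protein, was at 118 against 129 CPM (−0.14).

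As a group these were well-expressed genes. In the high library 19 of 36 were in the top 25% of all genes by CPM per kilobase, and in the low library 17 of 36. The smallest read numbers were 893 for Fads2 in the high and 449 for Hsd17b7 in the low library, and the half-width of the log2 interval ran from 0.02 to 0.15. For 7 genes the tables listed several transcripts (17 in all), which share reads; their log2 ratios differed by at most 0.05 within a gene. No member had the same pair of read counts as another gene.

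A further 61 genes of the same pathways gave 12 higher and 5 lower calls, with a median log2 ratio of 0.04. Shares over all genes, against which the counts of these lists are to be read, were 14.5% higher and 10.9% lower. With RPKM read totals the counts were 29 and 2. Genes of sterol handling were among the widest ratios of these 61. Soat2, the sterol acyltransferase known from intestine and liver, was at 49.5 against 3.43 CPM, 14.5-fold up in MHC-II high (12.4 to 16.9). The gene of the lipoprotein receptor Scarb1 was at 9.51 against 81.1 CPM, so 8.52-fold up in MHC-II low (8.02 to 9.05). Per kilobase Soat2 stood at 2.59 times Soat1 in MHC-II high and 0.304 times in MHC-II low. Npc2, a lysosomal sterol carrier and the gene with the most reads of the 16 further cholesterol genes, was at 930 against 769 CPM (0.27). These 16 genes gave 2 higher and 2 lower calls, and their median log2 ratio was −0.25, with 9 of them below the median of all genes.

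In the list of 15 further genes of fatty acid synthesis, 4 passed 2-fold on the high side and 0 on the low side, beside 14.5% and 10.9% of all genes (median log2 ratio 0.51). Me1, the malic enzyme that supplies NADPH, was at 221 against 100 CPM (2.20-fold, 2.14 to 2.27) and Thrsp, a lipogenic regulator, at 47.7 against 13.6 CPM (3.50-fold). The elongase gene Elovl3 rested on 418 against 36 reads (3.86-fold, 2.74 to 5.58), and Elovl5 was at 124 against 77.8 CPM (0.68). The 20 further oxidation genes held 2 such genes on each side and had a median log2 ratio of −0.30. The coactivator gene Ppargc1a was at 16.7 against 4.14 CPM (4.04-fold, 3.50 to 4.67). The mitochondrial thiolase gene Acaa2 was at 11.4 against 44.3 CPM, 3.90-fold up in MHC-II low. Hadh was at 90.8 against 97.2 CPM (−0.10). Of the 20, 13 lay below the median of all genes.

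Of 10 genes of lipid uptake and storage 4 were higher and 1 lower, beside 14.5% and 10.9% of all genes. The fatty acid binding protein genes Fabp5 and Fabp4 were at 740 against 308 and 411 against 159 CPM, with log2 ratios of 1.27 and 1.37. The fatty acid translocase gene Cd36 was at 5.34 against 52.8 CPM, 9.89-fold up in MHC-II low (log2 ratio −3.31). Fabp4 and Cd36 are both known from adipocytes, macrophages and endothelium, whose marker lists differed between the libraries in opposite directions (adipocyte 22.0 against 7.80, dendritic and macrophage 430 against 101, endothelial 71.9 against 482 CPM); their part was not tested.

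**Figure D3:**
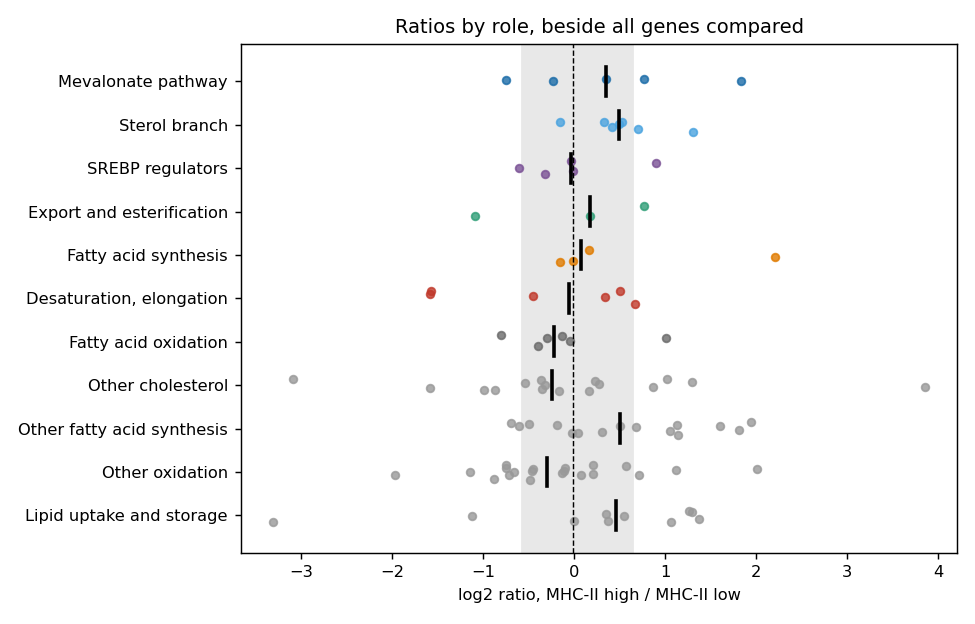
Each point is the log2 ratio of 1 gene, in rows by role, with coloured points for the genes of the set, grey points for the 61 further pathway genes, and black bars for the row medians; vertical scatter within a row has no meaning. The grey band spans the quartiles of all genes (−0.58 to 0.65), and the medians of the sterol branch (0.49), the further fatty acid synthesis genes (0.51) and the lipid uptake and storage genes (0.46) are the highest, all inside the band.

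**Figure D4:**
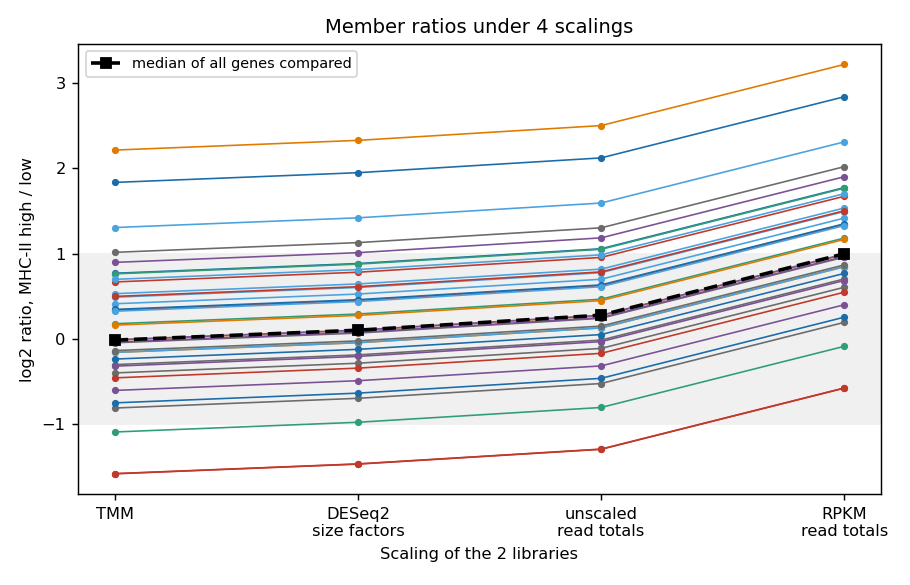
Log2 ratios of the 36 genes (lines coloured by role as in the plot of levels) under 4 scalings of the libraries, with the median of all genes as a dashed line and the 2-fold limits as a grey band. All lines shift together, by 0.11 with DESeq2 size factors, 0.29 with unscaled and 1.003 with RPKM read totals, and the order of the genes stays the same.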

How the data were processed

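Per the labels' protocols, MHC-II low and MHC-II high mTEC were sorted from a pool of 3 mice. About 100 ng of total RNA per library went into an unstranded poly-A TruSeq preparation with 15 PCR cycles and paired reads of 100 bases, as the series' design text states. The submitters' processing notes name bedtools, Bowtie 1.0.0, CASAVA and the mm9 build, without settings, order or annotation. For every RefSeq transcript, per the file headers, the authors' tables give a whole-number read count, a length and an RPKM value. Each deposited RPKM matches the count per kilobase over a library total of 213854095 (high) or 142330178 (low).

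Stray lines (18 and 36) were dropped, copies of a transcript were summed, and 29800 of 29920 accessions, present in both tables with equal length, were used. Names came from RefSeq GRCm38.p6 (29352) and GENCODE vM21 (174), not the authors' build, so no expression value carries coordinates. Counts were scaled with TMM factors (edgeR 4.0.16 in R 4.3.3) from genes with a mean of at least 1 CPM, giving totals of 152834157 and 50769794. Ratios have exact 95% Clopper-Pearson limits, which treat every read as independent and cover at most counting error. Without molecular identifiers, PCR copies could not be told from separate molecules, so the limits may be too narrow even for that. With 1 library per group no p-value is given. The low library is the less deep, so its reads set the precision. Changes in the ratio of a gene pair have a 95% interval from the log odds ratio of the reads, and the pairs were chosen with their values known. The calling rule was tried on simulated counts that held counting error only, which says nothing of variation between replicate libraries. The genes named are all 37 members and, per further list, the 2 with the most reads and the 2 with the largest ratio; markers are named by reads. Some genes that this rule names are not reported here. The members, lists and motifs were chosen with earlier results of these data known. Alternatives were other scalings (DESeq2 1.42.0 size factors among them), minimums, transcripts, missing accessions read as 0, and call rules.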

Additional observations from a re-analysis of the deposited data

How the results depend on the processing

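The scaling of the libraries is the choice that matters most. Median log2 ratios with DESeq2 size factors were 0.19 for all members, 0.46 for the mevalonate pathway, 0.60 for the sterol branch, 0.076 for the regulators, 0.29 for export and esterification, 0.19 for fatty acid synthesis, 0.055 for desaturation and elongation, −0.10 for oxidation. With TMM factors from all genes, an alternative chosen after seeing the data, they were 0.19 for all members, 0.46 for the mevalonate pathway, 0.61 for the sterol branch, 0.081 for the regulators, 0.30 for export and esterification, 0.19 for fatty acid synthesis, 0.059 for desaturation and elongation, −0.10 for oxidation. Unscaled read totals gave 0.36 for all members, 0.63 for the mevalonate pathway, 0.78 for the sterol branch, 0.25 for the regulators, 0.47 for export and esterification, 0.36 for fatty acid synthesis, 0.23 for desaturation and elongation, 0.069 for oxidation, with 5 members higher beyond 2-fold. RPKM read totals gave 1.08 for all members, 1.35 for the mevalonate pathway, 1.49 for the sterol branch, 0.97 for the regulators, 1.18 for export and esterification, 1.08 for fatty acid synthesis, 0.94 for desaturation and elongation, 0.78 for oxidation, with 18 members higher and 0 lower and 29 further pathway genes higher and 2 lower. Of the 36 members, 4 changed the sign of the log2 ratio with DESeq2 size factors or TMM factors from all genes, 8 with unscaled and 15 with RPKM read totals. The call of Abca1 was lost under each of these 4 scalings and those of Fads1 and Fads2 with RPKM read totals, while Acacb, Idi1 and Hsd17b7 passed under all of them. Cpt2 gained a higher call under each of the 4 and Insig1 with unscaled and RPKM read totals. Set against the median of all genes the medians moved only with the minimum. With no minimum the differences were 0.21 for all members, 0.48 for the mevalonate pathway, 0.63 for the sterol branch, 0.10 for the regulators, 0.32 for export and esterification, 0.21 for fatty acid synthesis, 0.078 for desaturation and elongation, −0.081 for oxidation. With a mean of 5 CPM that of the regulators turned from −0.024 to 0.014. With the interval beyond 1.5-fold, 9 members were higher and 5 lower, and 18 further genes were higher and 14 lower. The longest transcript, the one with most reads per base, and missing accessions read as 0 changed no sign and no call among the members. With 1 library per group no replicate could be left out. No paired analysis was possible because each group has 1 library and no numbers. Depth limits Fads2, Mvk and Hsd17b7 most among the members.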
